A study of Rattus norvegicus with 24 samples.

Results

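The late response of thoracic propriospinal (TPS) neurons to spinal transection was taken from 12 of the 24 arrays of the series, chosen by their labels alone: 2 arrays of transected rats at 2 weeks and 2 at 1 month after the lesion, and the 4 uninjured arrays labelled as 2-week and the 4 labelled as 1-month controls. The 4 transected arrays were compared with the 8 uninjured ones in a limma model of log2 intensity with time (2 weeks or 1 month) as a block, which gives the difference that the times have in common. All animals were female Long Evans rats of 77 ± 10 days. In every group the neurons had been marked by the fluorescent tracer Fluoro-Gold, injected into the lumbosacral cord and carried back along the axon to the cell body, and were later cut out of the intermediate gray matter with a laser, with 1 array for each animal. The transected rats had a complete low thoracic transection after the tracer injection, and the controls are labelled as not injured and had the tracer. The general description of the samples also speaks of sham animals, so whether the controls had sham surgery is not settled here. The remaining 12 arrays, used here only for the comparison with the early response, held 4 animals at 3 days, 4 at 1 week and 4 controls labelled 4 days. Tissue cut from around a labelled cell body can carry pieces of neighbouring glia and vessels, the neurons reached late are those that survived until then, and the late transected groups have 2 animals each, numbered 3 and 4 at 2 weeks and 1 and 2 at 1 month.

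Propriospinal neurons connect segments of the spinal cord to each other, and those studied here send long axons from the thoracic cord to the lumbosacral enlargement. A neuron whose axon is cut can switch on regeneration-associated genes, such as those of transcription factors, small heat shock proteins and neuropeptides. Microglia, the resident macrophages of the cord, react around cut axons and degenerating tissue, where they take up debris and make the C1q chains that start the classical complement pathway.

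Few probes passed the pooled late test, and nearly all that did were higher after transection. Of 23240 probes tested, 22 (0.0947%) passed an adjusted p of 0.05 by limma, 21 of them higher (0.0904%) and 1 lower (0.0043%) in the transected animals. The 21 higher probes differed by 0.38 to 1.27 on the log2 scale (1.30-fold to 2.41-fold), with a median of 0.80, and 17 of the 22 called probes carry 1 gene symbol. Of those 17 genes, 5 are on the list of microglial and macrophage markers (Aif1, Cd53, Itgam, Laptm5 and Tyrobp), 2 on the complement list (C1qa and C1qc), 2 on the regeneration-associated list (Hspb1 and Gal) and 2 on the list of reactive astrocytes (Timp1 and again Hspb1). At an unadjusted p under 0.05 there were 1816 probes (7.81%), of which 1100 were higher (4.73%) and 716 lower (3.08%). All 4 transected arrays stood above all 8 controls in 19 of the 21 higher probes (0.448% of all tested probes did so), and within each time separately in 21 of 21 (1.17% of all, and 0.598% were lower without overlap at both times). The 21 were called by a test on these same arrays, so their lack of overlap follows from that choice and adds no support. The count of 22 was 2 without 1-month transected animal 1, 5 without 2-week transected animal 3, between 4 and 12 without any of the other arrays, and 0 when the contrast was taken from a fit of all 24 arrays, whose smallest adjusted p was 0.0968. Casp4 and Itgam passed with each of the 12 arrays left out, C1qc with 11 (not without 1-month transected animal 1), Apobec1 and Timp1 with 8, and each of the other called probes with 0 to 3.

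Each limma p-value sets a difference against the spread between animals, since 1 array stands for 1 animal. The spread of each probe was moderated with that of all tested probes. The median intensity of the 12 arrays was 73.6 to 80.7, and the median log2 was 6.30 to 6.34 on the 2-week arrays and 6.20 to 6.24 on the 1-month arrays. The control groups of the 2 times differed from each other in 4117 probes (17.7%), so a transected array is best read against the controls of its own time. Of the 12 arrays, that of 2-week transected animal 3 was the highest in 17 of the 21 higher probes, and in 8.36% of all tested probes. The mean log2 of the 21 probes was 8.48 and 8.07 in the 2-week transected animals against 7.39 to 7.54 in their controls, and 8.03 and 7.95 in the 1-month transected animals against 7.14 to 7.33.

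Genes of microglia and macrophages made the largest named group. Of 28 tested marker genes of these cells, 26 were higher after transection and 2 lower, 5 passed the test (Itgam, Aif1, Laptm5, Cd53 and Tyrobp), 22 had an unadjusted p under 0.05, and the median log2 difference was 0.46, beside -0.01 over all tested probes. Itgam, the αM chain of the complement receptor CR3, had log2 intensities of 6.67 and 6.27 in the 2-week transected animals against 5.53, 5.62, 5.69 and 5.56 in their controls, and 6.19 and 6.23 at 1 month against 5.32, 5.63, 5.59 and 5.42. The groups did not overlap at either time, and the lowest transected value lay above the highest of all 8 controls. Itgam rose by 0.80 (SE 0.08, adjusted p = 0.00459), or 1.74-fold. Cd53, a tetraspanin of leukocytes, was at 8.94 and 8.55 against 7.89 to 8.02 at 2 weeks and at 8.40 and 8.37 against 7.13 to 7.93 at 1 month, a rise of 0.82 (SE 0.13, adjusted p = 0.0425) without overlap. Laptm5, a lysosomal membrane protein of blood cells, was at 8.02 and 7.76 against 6.80 to 7.37 at 2 weeks and at 7.87 and 7.99 against 7.33 to 7.48 at 1 month, a rise of 0.65 (SE 0.10, adjusted p = 0.0383), again without overlap. Tyrobp, the signalling adaptor that many microglial surface receptors share, rose by 0.67 (SE 0.11, adjusted p = 0.0479), from controls between 8.26 and 8.72 to transected animals between 9.03 and 9.61. Aif1, the microglial protein known as Iba1, showed the smallest of these rises, 0.45 (SE 0.07, adjusted p = 0.0383). Its 1-month transected animals, at 9.12 and 9.10, were above their own controls (8.61 to 8.88) but at the height of the 2-week controls (8.95 to 9.11), so the 4 and 8 arrays overlapped while the groups within each time did not.

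**Figure D1:**
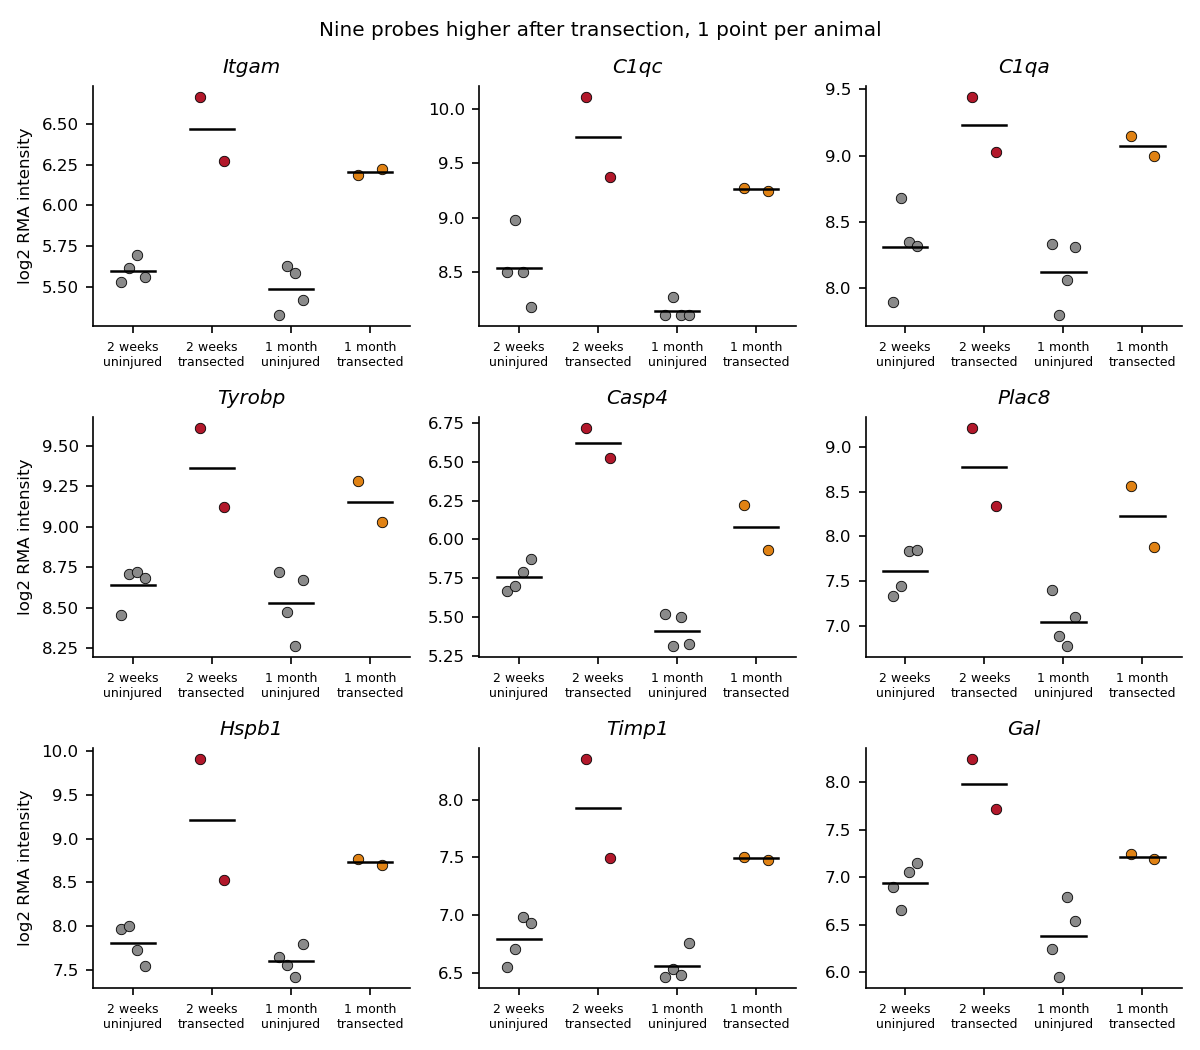
Log2 intensity (vertical axis) of 9 genes that passed the late test, by group (horizontal axis: 2-week controls and transected, 1-month controls and transected), with 1 point for each animal and a bar at the group mean. In each panel the transected animals lie above the controls of their own time at both times, and the 2-week point of Hspb1 at 9.91 stands apart from the other transected animals.

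Most of the other microglial genes were higher as well without passing. Fcer1g, the Fc receptor γ chain, was 0.87 higher (SE 0.16, adjusted p = 0.105), the purinergic receptor gene P2ry12 0.93 higher (adjusted p = 0.210), the lysosomal glycoprotein gene Cd68 0.79 higher (adjusted p = 0.224) and Cx3cr1, the fractalkine receptor, 0.61 higher (adjusted p = 0.220). Tmem119, a marker of resident microglia, and Cd163, a scavenger receptor of perivascular macrophages, were the 2 lower members, at -0.04 and -0.05. The summed intensity of the 28 markers was 8415 and 7190 in the 2-week transected animals against 4952 to 5719 in their controls, and 7096 and 6526 at 1 month against 4661 to 5842, which makes a ratio of group means of 1.47 and 1.32. The summed intensity of 19 neuronal markers lay between 34056 and 37540 on all 12 arrays, with 0 of them at the lowest intensity in all controls, and changed by ratios of 1.01 at both times. Because the dissected material pools many cells, more cells of a type and more RNA per cell cannot be told apart, and the part of microglia around the dissected neurons in these rises was not tested.

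**Figure D2:**
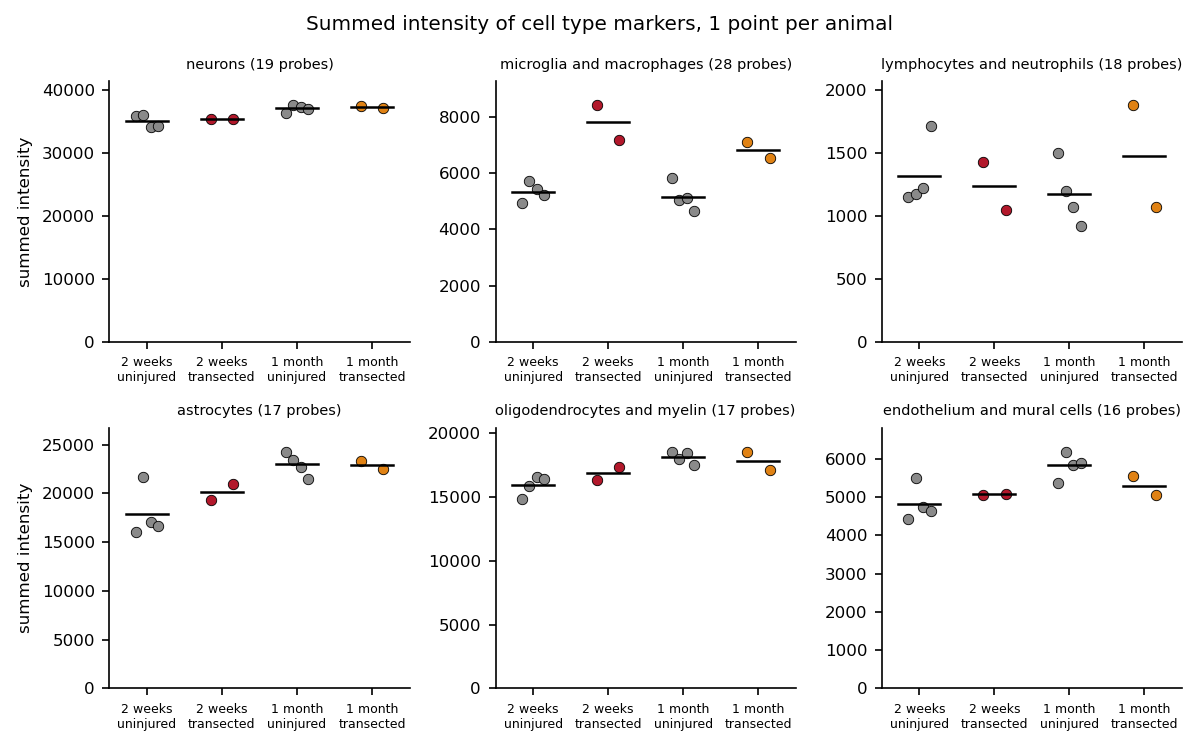
Summed intensity of the markers of each of 6 cell types (vertical axis, starting at 0), by group, with 1 point for each animal and a bar at the group mean. The 4 transected sums of the microglia and macrophage markers (6526 to 8415) lie above all 8 control sums (4661 to 5842), and the neuronal sums of transected and control animals of the same time lie close together.

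Complement genes were higher as a group, led by chains of C1q. Of 10 tested genes of complement components and regulators, all 10 were higher after transection, 2 passed the test, 7 had an unadjusted p under 0.05, and the median log2 difference was 0.42. C1qc was at 10.11 and 9.38 in the 2-week transected animals against 8.50, 8.98, 8.50 and 8.18 in their controls, and at 9.28 and 9.24 against 8.11, 8.27, 8.11 and 8.10 at 1 month. There was no overlap, and the 2-week animal at 10.11 was the highest of the 12. C1qc rose by 1.16 (SE 0.14, adjusted p = 0.0175), or 2.23-fold. C1qa was at 9.44 and 9.02 against 7.90 to 8.68 at 2 weeks and at 9.15 and 8.997 against 7.79 to 8.33 at 1 month, a rise of 0.94 (SE 0.14, adjusted p = 0.0383). The third chain, C1qb, was 0.46 higher and did not pass (adjusted p = 0.184), with 2-week transected values of 7.94 and 7.83 beside a control at 7.83. Serping1, the inhibitor of C1, was 0.74 higher (adjusted p = 0.158) and C3, the central component, 0.90 higher (adjusted p = 0.490), neither past the test. The microglial marker sum was also higher after transection. Its part in the differences of these genes and of the genes described next was not tested.

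The promoters of Itgam and C1qa are printed because these genes had called differences in the groups of microglial and complement genes and hold matches to motifs of transcription factors linked to myeloid cells and cytokine signalling. The 250 bases before the start of each gene were read from RefSeq (assembly GRCr8), where 12 of the 17 called genes had an entry among 33469 promoters, and are written 5′ to 3′ in the direction of the gene. Itgam lies on the forward strand (chr1:192089342-192089591) and C1qa on the reverse strand (chr5:154419934-154420183). Capitals mark matches to the PU.1 core GAGGAA or its reverse complement TTCCTC, and to the STAT motif TTCNNNGAA. 
Itgam: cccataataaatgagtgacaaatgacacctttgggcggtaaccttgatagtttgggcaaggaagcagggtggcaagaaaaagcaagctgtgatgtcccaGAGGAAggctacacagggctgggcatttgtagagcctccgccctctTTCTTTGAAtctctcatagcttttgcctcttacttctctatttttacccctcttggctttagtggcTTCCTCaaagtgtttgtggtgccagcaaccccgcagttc
C1qa: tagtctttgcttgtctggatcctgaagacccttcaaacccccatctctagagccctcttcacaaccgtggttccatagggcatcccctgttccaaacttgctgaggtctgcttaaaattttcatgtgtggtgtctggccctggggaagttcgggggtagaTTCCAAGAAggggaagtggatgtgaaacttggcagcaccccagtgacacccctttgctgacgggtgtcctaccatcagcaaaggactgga
The Itgam window holds GAGGAA starting 151 bases before the start of the gene, TTCTTTGAA at 105 and TTCCTC at 39, and the C1qa window holds TTCCAAGAA at 90. On either strand, the PU.1 core was found in 5 of the 12 called genes (Apobec1, Cd53, Hspb1, Itgam and Laptm5) and in 23.3% of all promoters, and the STAT motif in 2 of 12 (C1qa and Itgam) and in 7.67% of all. A match describes letters in these windows and not a bound site.

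Further genes that rose are on none of the lists of cell type markers. Casp4, an inflammatory caspase of the non-canonical inflammasome, was at 6.72 and 6.52 in the 2-week transected animals against 5.67, 5.70, 5.79 and 5.87 in their controls, and at 6.22 and 5.93 against 5.52, 5.31, 5.50 and 5.33 at 1 month. Every transected value lay above every control, and the rise of 0.76 (SE 0.08, adjusted p = 0.00459) ranked first of all tested probes by p. Apobec1, a cytidine deaminase that edits messenger RNA, was at 7.98 and 7.58 against 6.91 to 7.24 at 2 weeks and at 7.27 and 7.36 against 6.19 to 6.60 at 1 month, a rise of 0.78 (SE 0.10, adjusted p = 0.0234). Plac8 was at 9.21 and 8.34 against 7.34 to 7.84 at 2 weeks and at 8.57 and 7.88 against 6.77 to 7.40 at 1 month, a rise of 1.17 (SE 0.18, adjusted p = 0.0425), and the margin between its lowest transected animal and its highest control was narrow. Gngt2, a G protein γ subunit, rose by 0.81 (SE 0.12, adjusted p = 0.0383), Coro1a, an actin-binding protein of leukocytes, by 0.50 (SE 0.08, adjusted p = 0.0479) and Rnaset2, a lysosomal ribonuclease, by 0.45 (SE 0.07, adjusted p = 0.0383). Casp4 and Itgam were dim probes, below the median mean level of all probes, while C1qc, C1qa, Aif1, Tyrobp and Rnaset2 lay above the 90th percentile of it. None of the 22 genes on the lysosome and phagocytosis list, which holds neither Rnaset2 nor Laptm5, passed, although 21 were higher and 14 had an unadjusted p under 0.05, with a median of 0.30. Lgals3, the lectin galectin-3 of phagocytes, was 0.85 higher (adjusted p = 0.266). The other 4 higher probes have no single gene symbol in the annotation used and were named after their values were seen, namely 10739984 (1.06), 10765650 (0.87), 10937989 (0.43) and 10916880 (0.38).

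Markers of lymphocytes and neutrophils did not share this lean, with 8 of 18 higher, 10 lower, 1 at an unadjusted p under 0.05 and none past the test (median -0.02, and 0.01 with cyclic loess normalization). Their summed intensity was 1427 and 1048 in the 2-week transected animals against 1149 to 1714 in their controls, and 1881 and 1074 against 921 to 1501 at 1 month, so the groups overlapped at both times. Nor did the genes of antigen presentation pass, with 13 of 22 higher and a median of 0.07. Of 29 cytokine and chemokine genes, 17 were higher and none passed. Cxcl13, a chemokine that attracts B cells, had a log2 difference of 1.59 but a standard error of 0.62 (adjusted p = 0.593), and its 2-week controls alone ran from 5.38 to 9.57.

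Timp1, the secreted inhibitor of matrix metalloproteinases, had one of the larger rises. It was at 8.35 and 7.50 in the 2-week transected animals against 6.55, 6.71, 6.99 and 6.94 in their controls, and at 7.51 and 7.48 against 6.46, 6.54, 6.48 and 6.76 at 1 month. There was no overlap, and 3 of the 4 transected animals lay close together at about 7.50, with 2-week animal 3 above them. Timp1 rose by 1.03 (SE 0.14, adjusted p = 0.0248), or 2.04-fold. It was the only member of 26 genes of extracellular matrix and scar to pass (16 higher, median 0.04). Of 16 genes of reactive astrocytes, 12 were higher, with a median of 0.34, and Timp1 and Hspb1 passed. Gfap, the intermediate filament of astrocytes, was 0.99 higher and did not pass (adjusted p = 0.210), with 2-week controls between 8.59 and 10.12 below transected values of 10.38 and 10.38. Of 17 general astrocyte markers, 11 were higher and 6 lower, none passed, and the median was 0.04.

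Among regeneration-associated genes, those that passed encode a small heat shock protein and a neuropeptide. Of 41 tested genes on the list, 34 were higher and 7 lower after transection, 2 passed (Hspb1 and Gal), 20 had an unadjusted p under 0.05 and the median was 0.17. Hspb1, a small heat shock protein that binds actin and counters cell death in injured neurons, was at 9.91 and 8.53 in the 2-week transected animals against 7.97, 8.01, 7.73 and 7.54 in their controls, and at 8.77 and 8.70 against 7.65, 7.56, 7.42 and 7.80 at 1 month. The groups did not overlap, and 2-week animal 3 stood more than 1 log2 unit above the other transected animals. Hspb1 rose by 1.27 (SE 0.20, adjusted p = 0.0425), or 2.41-fold, the largest of the called differences. Gal, which encodes the neuropeptide galanin, was at 8.24 and 7.71 against 6.90, 6.66, 7.06 and 7.15 at 2 weeks and at 7.24 and 7.19 against 6.24, 5.94, 6.79 and 6.54 at 1 month. The lowest transected animal (7.19) lay just above the highest 2-week control (7.15), and within each time the gap was wider. Gal rose by 0.94 (SE 0.15, adjusted p = 0.0479), and was the only one of 24 neuropeptide genes to pass (15 higher, 9 lower, median 0.07). The microglial marker sum, with its ratios of 1.47 and 1.32, and the median of the reactive astrocyte list, which holds Hspb1 too, at 0.34, were also higher after transection, and their part in the values of the regeneration-associated list was not tested.

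The promoters of Hspb1 (chr12:26432302-26432551, reverse strand) and Gal (chr1:210084573-210084822, reverse strand) are shown for the genes that passed in the regeneration-associated list, read as above from RefSeq GRCr8, 5′ to 3′. Capitals mark matches to the heat shock element (GAANNTTC or TTCNNGAA) and to the PU.1 core GAGGAA. 
Hspb1: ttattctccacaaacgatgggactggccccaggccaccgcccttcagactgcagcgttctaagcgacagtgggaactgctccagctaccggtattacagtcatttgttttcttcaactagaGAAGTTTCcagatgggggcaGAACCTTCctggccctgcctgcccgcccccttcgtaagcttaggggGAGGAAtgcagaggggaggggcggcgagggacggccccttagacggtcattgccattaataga
Gal: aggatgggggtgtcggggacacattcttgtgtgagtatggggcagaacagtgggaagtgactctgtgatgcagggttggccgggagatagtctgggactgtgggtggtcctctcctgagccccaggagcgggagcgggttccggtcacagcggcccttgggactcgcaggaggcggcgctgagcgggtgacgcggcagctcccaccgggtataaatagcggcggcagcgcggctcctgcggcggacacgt
In Hspb1 the heat shock elements GAAGTTTC and GAACCTTC start 129 and 109 bases before the start of the gene, and GAGGAA starts at 63. The heat shock element was found in 2 of the 12 called genes with an entry (Hspb1 and Cd53) and in 13.5% of all promoters. The Gal window holds none of the motifs searched, which says only that these letters are not in this window. The AP-1 motif TGANTCA (6.34% of all promoters) and the cyclic AMP response element TGACGTCA (1.59%) were found on either strand in 0 of the 12.

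No other gene of the regeneration-associated list passed, though some had large differences. Atf3, a transcription factor of injured neurons, was at 8.18 and 6.41 in the 2-week transected animals against 5.41 to 5.84 in their controls, and at 6.51 and 6.49 against 5.71 to 5.97 at 1 month. It was higher in all 4 transected animals than in all 8 controls, but its difference of 1.13 had an SE of 0.27 (adjusted p = 0.210), with 2-week animal 3 far above the other transected animals. Adcyap1, which encodes the neuropeptide PACAP, was at 7.97 and 7.41 against 6.53 to 7.34 at 2 weeks and at 7.51 and 7.81 against 6.76 to 7.24 at 1 month, a difference of 0.74 without overlap (SE 0.15, adjusted p = 0.152). Lifr, a receptor chain for leukemia inhibitory factor, was 0.47 higher (adjusted p = 0.129), Stat3, a transcription factor downstream of such receptors, 0.51 higher (adjusted p = 0.156) and Ret, the signalling receptor of the GDNF family, 0.58 higher (adjusted p = 0.210). The growth cone protein gene Gap43 was 0.15 higher (adjusted p = 0.584) and the transcription factor gene Sox11 0.31 higher (adjusted p = 0.520). Of the 14 regeneration and survival genes that the study picked on these arrays, and which are therefore not independent of them, 14 were higher, 11 had an unadjusted p under 0.05 and Hspb1 passed. Its 8 receptor and growth factor genes (5 higher, median 0.21) and 7 apoptosis genes (6 higher, median 0.16) were picked in the same way, and none passed. No gene passed among 27 neurotrophic factors and receptors (19 higher, median 0.09) or 33 genes of apoptosis (19 higher, median 0.08). None passed either among 23 genes of the unfolded protein and integrated stress response (18 higher, median 0.10) or 22 of p53 and DNA damage (16 higher, median 0.05).

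**Figure D3:**
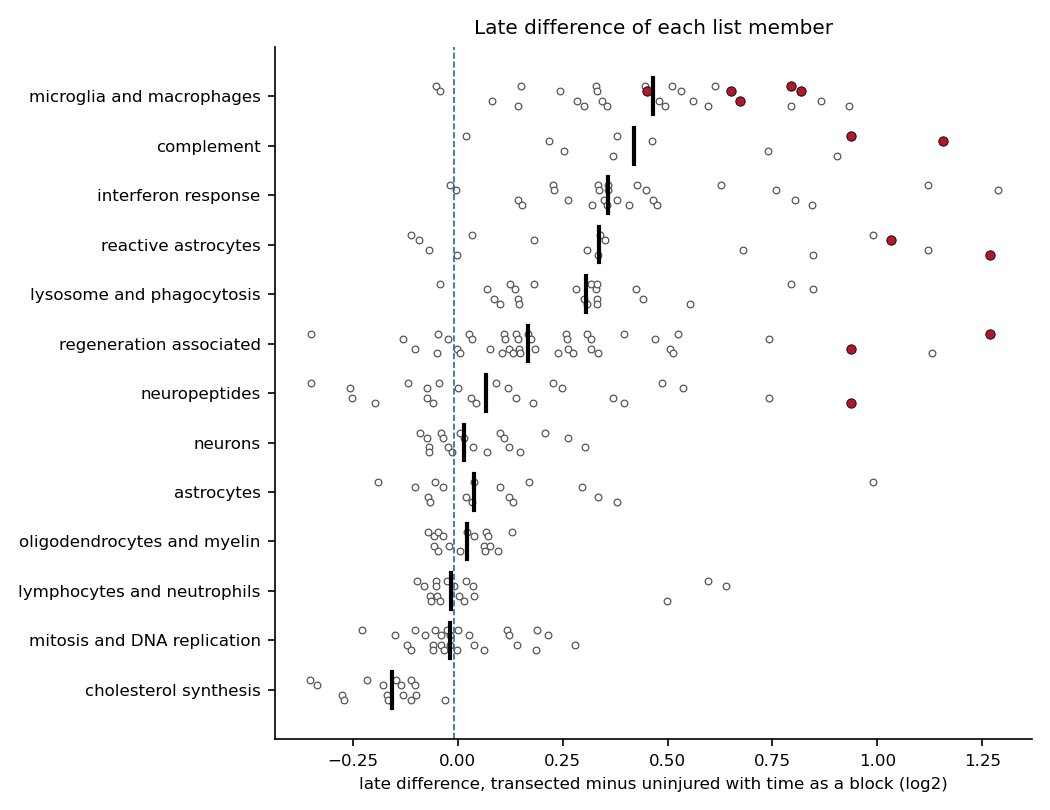
Late log2 difference, transected minus uninjured with time as a block (horizontal axis), of every tested member of 13 gene lists (circles, filled where the member passed the test), with a bar at the median of each list and a dashed line at the median of all tested probes. Microglia and macrophages (0.46) and complement (0.42) have the highest medians shown, and all 16 members of cholesterol synthesis (median -0.16) lie below 0.

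Neuronal identity and signalling genes held no called member. As only 0.0947% of all tested probes were called, the absence of calls in lists this short says little about them. Of 19 neuronal markers, 11 were higher and 8 lower, none passed and the median was 0.01, with Snap25, a protein of vesicle fusion, at -0.02, the surface glycoprotein gene Thy1 at -0.01 and the neurofilament gene Nefm at -0.07. Among 30 ion channel genes, 16 were higher, and the sodium channel gene Scn2a (0.36) and the calcium channel subunit gene Cacna2d1 (0.44) came nearest to the test (adjusted p = 0.152 for each). The medians were 0.03 for 24 synaptic genes, 0.01 for 33 transmitter receptors, 0.02 for 17 markers of oligodendrocytes and myelin and -0.02 for 16 of endothelium and mural cells, with no member past the test in any of them. The signs of the medians of ion channels, synaptic genes, transmitter receptors and endothelium each changed with 1 or more arrays left out, and that of transmitter receptors also with quantile normalization, so no direction is given for these lists. Other lists had medians near 0 as well, with no member past the test except Hspb1 among the heat shock proteins and Coro1a among the actin genes, at 0.01 for 12 genes of neurotransmitter identity, 0.01 for 22 receptors of axon growth inhibition and guidance, 0.02 for 20 heat shock proteins and chaperones, 0.07 for 23 genes of iron, copper and redox handling, 0.07 for 27 of actin, tubulin and neurofilaments, and -0.01 for 19 of the glucose, oxygen and vessel response. No direction is given for neurotransmitter identity, axon growth inhibition or the glucose, oxygen and vessel response either, since the signs of their medians changed with 1 or more arrays left out, for axon growth inhibition also with quantile normalization, and for the glucose list with cyclic loess.

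Downward changes were few. The single probe that fell, 10730830, has no gene symbol in the annotation used and was named after its values were seen. It was at 6.41 and 6.79 in the 2-week transected animals against 6.97 to 7.11 in their controls and at 6.51 and 6.30 against 6.87 to 7.07 at 1 month, below every control, and it fell by 0.48 (SE 0.08, adjusted p = 0.0493). Of named genes none fell past the test, and the lowest p belonged to Nos3, the endothelial nitric oxide synthase, at -0.28 (adjusted p = 0.152). Behind it came Hykk, Anks3, Or10d4, Krt86, Msmo1, Abhd1, Pp2d1, Insig1 and Ccdc51, with differences of -0.24 to -0.39. Both Msmo1 and Insig1 belong to cholesterol synthesis, where all 16 tested enzymes and regulators were lower, 7 with an unadjusted p under 0.05, none past the test, and the median was -0.16. Msmo1, a sterol demethylating oxidase, was at 9.52 and 9.95 against 10.04 to 10.26 at 2 weeks and at 9.99 and 10.25 against 10.28 to 10.54 at 1 month, lower than its own controls at each time (-0.35, SE 0.09, adjusted p = 0.246). Members were lower at both times in 14 of the 16, beside 29.4% of all tested probes, and the median was -0.20 at 2 weeks and -0.10 at 1 month.

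The differences were also taken at each time apart. Of the 21 higher probes, 14 differed more at 2 weeks than at 1 month (55% of all tested probes had the larger value at 2 weeks), and none had an unadjusted interaction p under 0.05, the smallest being 0.0868 for Gngt2 (0.61 at 2 weeks and 1.02 at 1 month). A pooled fit favours probes that differ alike at both times, so nothing is read from these counts. Across all probes the interaction of time and treatment passed for 0 (0%, smallest adjusted p 0.455, with 1248 probes or 5.37% at an unadjusted p under 0.05). Taken alone, the 2-week comparison called 1 probe (0.0043%) and the 1-month comparison 0 (0%, smallest adjusted p 0.0762), against 1948 (8.38%) and 1280 (5.51%) at an unadjusted p under 0.05. With 2 transected animals at each time these fits rest on few arrays, and a difference between the times that did not pass is not shown to be absent.

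**Figure D4:**
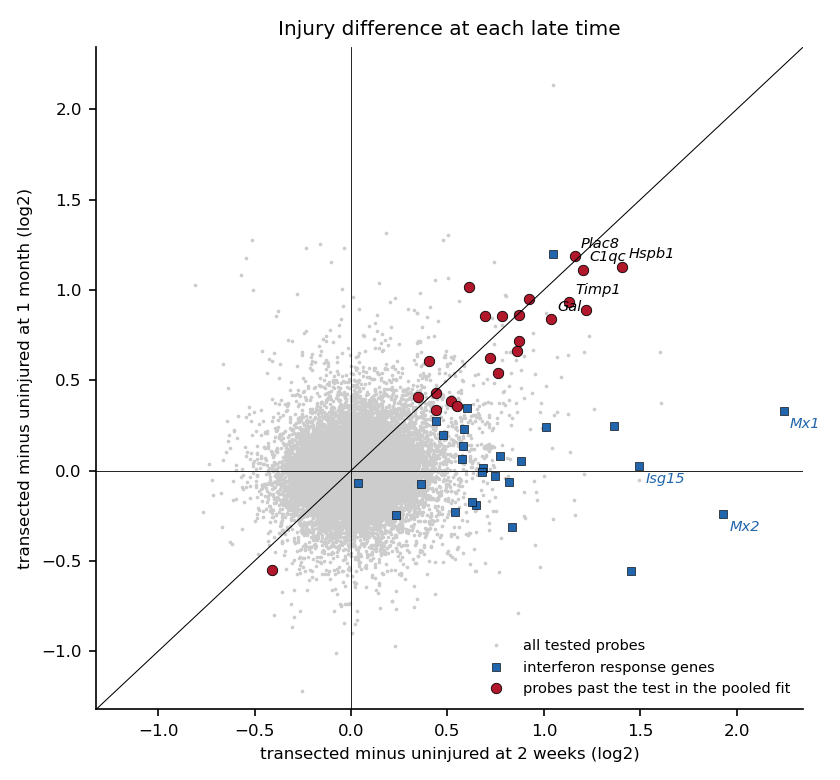
Log2 difference between transected animals and controls at 2 weeks (horizontal axis) against that at 1 month (vertical axis), with 1 point for each tested probe, the 22 probes past the pooled test as red circles, interferon response genes as blue squares and a line where both differences are equal. The called higher probes lie on both sides of that line, and Mx1 lies far below it (2.24 at 2 weeks and 0.33 at 1 month).

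Interferon response genes were the list that stood most apart between the times, without passing a test of the difference. All 26 tested members were higher at 2 weeks (median 0.68) and 14 were higher at 1 month (median 0.02), and 13 had an unadjusted interaction p under 0.05, with a smallest adjusted p of 0.544. The single 2-week call was Mx1, an antiviral GTPase, named here after its values were seen. It was at 7.98 and 6.82 in the 2-week transected animals against 4.96 to 5.28 in their controls, and at 5.74 and 5.25 against 5.01 to 5.31 at 1 month, so the groups overlapped at 1 month only. Mx1 rose by 2.24 at 2 weeks (SE 0.25, adjusted p = 0.0366) and was 0.33 higher at 1 month, and no probe passed at 2 weeks without the filter on dim probes or without any 1 of 2-week controls 1, 3 and 4, 1-month controls 1 and 4 and 2-week transected animal 3. Isg15, a ubiquitin-like modifier chosen in the same way, was at 9.99 and 8.96 against 7.74 to 8.20 at 2 weeks and at 8.10 and 7.96 against 7.71 to 8.34 at 1 month. Some uninjured animals of the 4-day control group reached such levels too, with Mx1 at 8.67, 5.90, 5.05 and 8.27 and Isg15 at 10.58, 8.46, 6.94 and 10.48. Cxcl10, an interferon-induced chemokine, differed from this pattern. It was at 7.60 and 7.57 against 6.28 to 6.71 at 2 weeks and at 8.10 and 6.41 against 6.01 to 6.12 at 1 month, higher than its own controls at both times, with a pooled difference of 1.12 that did not pass (SE 0.22, adjusted p = 0.131).

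Set against 3 days after transection, the late response had smaller estimates for most of its own genes. At 3 days 671 probes (2.89%) had passed against the 4-day controls, 465 higher (2%) and 206 lower (0.886%), in a limma fit of all 24 arrays, and none of the 8 arrays compared there is in the late comparison. Of the 21 late higher probes, 14 had also risen at 3 days, which is 66.7% of the late set and 3.01% of the 465, and 14 had a smaller difference late than at 3 days. The difference between the 3-day and the late effect passed for 57 probes (0.245%), 41 with the higher value at 3 days (0.176%) and 16 with the lower (0.0688%), and for 0 of the 21. Hspb1 stood at 2.50 at 3 days and 1.27 late, Timp1 at 2.09 and 1.03, Itgam at 1.77 and 0.80 and Apobec1 at 1.76 and 0.78. C1qa (1.12 and 0.94), Cd53 (0.93 and 0.82) and Coro1a (0.47 and 0.50) had like values at both. At 1 week, against the same 4-day controls, 17 of the 21 were higher, with a median of 0.38 beside 0.91 at 3 days and 0.80 late. None of the 21 passed at 1 week. The share of all probes that passed there was not counted, so nothing is read from this.

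**Figure D5:**
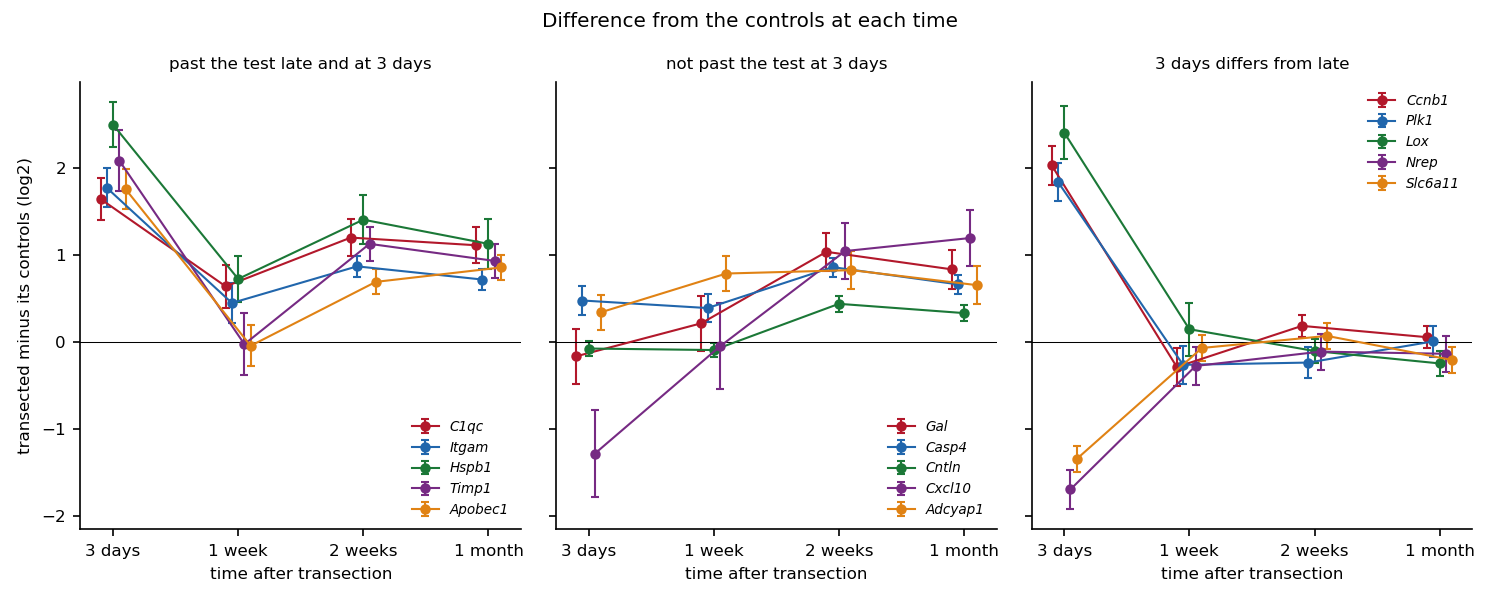
Log2 difference from controls (vertical axis) by time after transection (horizontal axis, the 4 times evenly spaced) for genes that passed late and at 3 days, genes not past the test at 3 days, and genes that differed between 3 days and the late times, with SE bars from the fit of 24 arrays (3 days, 1 week) or of the 12 late arrays. Hspb1 and Itgam stay above 0 at all 4 times, Gal lies at -0.16 at 3 days and 1.04 at 2 weeks, and Plk1 falls from 1.84 at 3 days to near 0 late.

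Gal and Cntln passed late but were not higher at 3 days. Gal was at -0.16 at 3 days (SE 0.31, adjusted p = 0.899) and 0.22 at 1 week, and its 3-day minus late difference of -1.10 did not pass (adjusted p = 0.424). Cntln, a centrosomal protein that the naming rule did not reach and that was chosen after its values were seen, rose by 0.39 late (SE 0.06, adjusted p = 0.0479) and stood at -0.07 at 3 days. Casp4 was 0.48 higher at 3 days without passing there (adjusted p = 0.127).

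Seen from the early side, the probes called at 3 days had smaller medians late. They were chosen for large 3-day differences, and that choice alone makes their medians smaller in any other comparison. Nothing is therefore read from the smaller medians, and the count of these probes that differed between 3 days and late rests on the same choice. The 465 probes higher at 3 days had a median difference of 0.80 there, 0.07 at 1 week and 0.15 late (0.19 at 2 weeks and 0.08 at 1 month), and 373 of them (80.2%) were still above 0 late, beside 46.9% of all probes. Of the 465, 131 (28.2%) were higher late at an unadjusted p under 0.05, beside 4.73% of all probes, and 41 differed between 3 days and late past the test. The 206 lower probes went from a median of -0.47 to -0.12 and -0.02, with 122 (59.2%) below 0 late, beside 53.1% of all probes, and none was called late. Among 27 genes of mitosis and DNA replication, 20 had risen at 3 days with a median of 1.14, and late 11 were higher and 16 lower, with a median of -0.02, none past the test and 9 with a difference between early and late that passed. Plk1, a mitotic kinase, went from 1.84 at 3 days to -0.11 late (adjusted p = 0.00343 for the difference), and Lox, a collagen cross-linking oxidase, from 2.41 to -0.17 (adjusted p = 0.00417). Nrep, the most decreased of the named genes at 3 days, went from -1.69 to -0.12 (adjusted p = 0.0201), and Slc6a11, a GABA transporter of astrocytes, from -1.34 to -0.07 (adjusted p = 0.00343). Of the 20 most increased genes that the study listed on these arrays, 16 were higher late, 3 passed (Itgam, Apobec1 and Hspb1) and 8 differed between early and late, and of 19 tested genes of its most decreased list 17 were lower late, 0 passed and 6 differed, which is no independent evidence since both lists were picked on arrays of this series.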

How the data were processed

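RNA from laser-dissected, Fluoro-Gold labelled neurons was hybridized to Affymetrix arrays of the Rat Gene 1.0 ST design, 1 for each animal. The deposited values are intensity on a linear scale, made by the authors with the RMA procedure of GeneSpring GX (17 to 7979.81, with 2337 values or 0.356% at 17), so background correction, quantile normalization and summarization are theirs. Their log2 was taken here, and no detection call is available, so the number of arrays limits the precision. The labels name the groups and the controls, which the labels date as 4 days, 2 weeks and 1 month.

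Probes were named through the annotation of the platform, where 15097 of 27342 probes have 1 symbol, 323 have several and 11922 have none. A further 10 probes were named from the study's tables. The 23240 probes above the lowest 15 percent by mean log2 (5.05, an intensity of 33.2) were fitted in limma 3.58.1 (R 4.3.3) as log2 on time and treatment, with eBayes and Benjamini-Hochberg adjustment at 0.05, two-sided. The interaction and the within-time effects came from the same 12 arrays, and the 3-day, 1-week and 3-day minus late effects from all 24. Simulated data with known changes served to test the fits.

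The 35 gene lists, the genes named and the tests were chosen with earlier results of these data known, and lists are described by counts and medians only. Named genes were the 15 called genes with 1 symbol and the smallest p in each direction (the 10 smallest where fewer passed), up to 3 members of each list by p, and the 3 brightest markers of each cell type. Members of a list are the brightest probe of each gene. Genes outside this rule are said to be chosen after their values were seen, and further genes are given as members of their list. Promoters were read from RefSeq GRCr8. Alternatives are given under the dependence on processing. Python 3.11.15, pandas 2.3.3, numpy 2.4.6 and matplotlib 3.10.9 were used for tables and plots.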

Additional observations from a re-analysis of the deposited data

Results flagged for a closer look

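Of 56 control groups of 4 arrays examined over 28 reported genes and probes, 4 held an array far from the other 3 by Dixon's test, where chance gives about 1 in 20. These were C1qc in 1-month control 2 (8.27 against 8.11 for the next, gap over range 0.978), Tyrobp in 2-week control 1 (8.46 against 8.68, 0.856), the probe 10730830 in 2-week control 2 (7.11 against 6.98, 0.916) and the unnamed probe 10937989 in 1-month control 4 (7.37 against 7.20, 0.924).

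The 3-day and the late effect differed past the test in 16 named genes, 10 with the higher value at 3 days and 6 with the lower. Over all tested probes, 57 (0.245%) did so. Of the 16, 8 are on the study's most increased list, 6 on its most decreased list, and Bard1 is among its apoptosis genes. Those lists were picked on arrays of this series, so the functions of the genes below reflect that choice and are no independent evidence. Genes of mitosis, cytokinesis and DNA repair were 5 of the 10: Plk1 (adjusted p = 0.00343 by limma), Ccnb1 (adjusted p = 0.00343), Casc5 (adjusted p = 0.00402), Diaph3 (adjusted p = 0.0175) and Bard1, which went from 0.81 to 0.00 (adjusted p = 0.0461). Immune cell genes were 4, namely Hcst (2.01 at 3 days and 0.12 late, adjusted p = 0.00343), Ms4a6bl1 (2.58 and 0.36, adjusted p = 0.00343), Clec4a3 (1.63 and 0.29, adjusted p = 0.0201) and Cfp, the complement activator properdin (1.35 and 0.22, adjusted p = 0.0310). The last was Lox (adjusted p = 0.00417). The 6 with the lower value at 3 days were Slc6a11 (adjusted p = 0.00343), Tst (-0.92 at 3 days and 0.03 late, adjusted p = 0.00343), Nrep (adjusted p = 0.0201), Car14 (-1.07 and -0.07, adjusted p = 0.0201), Slc7a10 (-0.82 and -0.05, adjusted p = 0.0286) and Pex5l (-0.78 and 0.06, adjusted p = 0.0308).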

How the results depend on the processing

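None of the called probes and of the genes reached by the naming rule changed the direction of its late difference under the alternatives run. Genes named only for the difference between 3 days and late, or as further members of a list, were not followed. Of the values followed, 2416 stayed on their side of the threshold, 369 lost the call and 1 gained it. Only called probes could lose a call, and most of the 2416 belong to genes never called. Itgam kept its call in 23 of 26 alternatives, Casp4 in 22 of 26, C1qc in 21 of 27, and Apobec1 and Timp1 in 17 of 27. Each of the other called probes kept it in 5 to 10 of 26 or 27, so most called probes lost the call under most alternatives. The count of 22 late probes stayed between 16 and 26 with a filter at the median level, moderation with an intensity trend, array quality weights, a filter from the 12 arrays, 1 probe for each gene or a minimum log2 difference of 0.25. It was 8 with no filter, 3 with quantile normalization, 5 with cyclic loess, 0 with all 24 arrays in the fit, 1 with treatment without time, 8 with the interaction in the model and the mean of the times, 3 by ordinary least squares without moderation (1787 at an unadjusted p under 0.05) and 0 by the methods' t-test (1096 at an unadjusted p under 0.05, smallest adjusted p 0.0658). Leaving out 1 array gave 2 (without 1-month transected animal 1) to 12 (without 1-month control 1). The 2-week count of 1 was 0 with no filter, 0 with the filter at the median, 2 with array quality weights, 2 with quantile normalization, 3 with cyclic loess, 0 with all 24 arrays, and 0 to 9 with 1 array left out (9 without 2-week transected animal 4). The 1-month count of 0 was 1 with an intensity trend and robust moderation and 0 to 12 with 1 array left out (12 without transected animal 2), and the interaction count of 0 was 0 to 3 (3 without that animal). The count of 57 between 3 days and late was 96 with array quality weights and 23 to 200 with 1 array left out (23 without 2-week transected animal 4, 200 without 3-day animal 3). The causes were not tested.

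Arrays that share a replicate number within a time had correlations of 0.04 to 0.11 (mean 0.08) in their deviations from the group means, all above 0. The mean of -0.03 for other pairs is no separate comparison. With 2 transected arrays at a time, their deviations mirror each other, and that mean follows from the same-number mean. The main fit did not take the numbers as pairs, and these correlations do not settle whether they are pairs. With the replicate block the late fit called 0 probes (1883 at an unadjusted p under 0.05, smallest adjusted p 0.186). The medians of the microglial (0.40 to 0.51), complement (0.37 to 0.49) and cholesterol (-0.20 to -0.10) lists kept their signs under both renormalizations and with each array left out. With 4 transected animals, 2 at each time, small differences were not detectable.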

Other observations

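Some genes outside the naming rule came next to the threshold, and are given after their values were seen. Plin2, a coat protein of lipid droplets, was 0.47 higher late (SE 0.08, adjusted p = 0.0520 by limma). Its transected animals were at 8.84 and 8.87 at 2 weeks and 8.73 and 8.86 at 1 month, above all 8 late controls (8.19 to 8.55). Some uninjured animals of the 4-day control group reached such levels, with Plin2 at 8.77, 9.17, 8.17 and 8.87. The chloride channel gene Clic1 was 0.88 higher (SE 0.15, adjusted p = 0.0598), and the genes of the membrane-cytoskeleton proteins moesin (Msn, 0.59, adjusted p = 0.0805) and annexin A2 (Anxa2, 0.73, adjusted p = 0.0805) were higher as well. None of these genes overlapped with the late controls of the same time, and none passed. They were chosen by their values, so this lack of overlap, found for 1.17% of all tested probes, adds no support. In the 4-day controls, Clic1 (7.87, 7.95, 6.96 and 8.08) and Msn (7.06, 7.36, 6.47 and 7.10) also reached late transected levels. Anxa2 (6.64 to 7.02) did not.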
